A study of Mus musculus with 8 samples.

Results

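The interferon response genes examined here are 33 genes with a row in the deposited count table, chosen by name as well-known targets of type I and type II interferon, of 31910 genes in that table. They comprise 4 IFIT genes, 5 OAS genes, 2 MX genes, 10 other antiviral effectors, 3 transcription factors, 4 guanylate-binding protein (GBP) genes and 5 immunity-related GTPase (IRG) genes. RNA was sequenced from frozen mouse livers, 4 labelled AAV2/9-Ctrl (Ctrl 1 to Ctrl 4) and 4 labelled AAV2/9-SA (SA 1 to SA 4). Both groups had thus received an adeno-associated viral vector, at 4.8e10 vector genomes per mouse after 7 weeks of feeding per the series design, and no uninjected liver is among the samples. The study asks whether a protein of bacterial origin eases steatohepatitis in mice. Feeding regimes are named in the design text (HFD over 24 weeks, HFHC with sugared water over 16 weeks, or chow), but the diet behind each sample is not labelled. The strain, sex and age of the mice and the promoter that drives the transgene are not given in the sources used here.

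Interferons are secreted proteins that switch on antiviral genes in the cells that sense them. Type I interferons bind the receptor made of Ifnar1 and Ifnar2, and the signal runs through the kinases Jak1 and Tyk2 to a complex holding Stat2 and Irf9 that binds the interferon-stimulated response element (ISRE). Type II interferon, encoded by Ifng and made mainly by T and NK cells, acts through Ifngr1 and Ifngr2 on genes that carry the gamma-activated site (GAS). The IFIT, OAS and MX genes are classical type I targets, whereas the GBP and IRG GTPases, which act on membranes around intracellular microbes, respond strongly to type II interferon. In the liver both hepatocytes and resident macrophages carry these receptors.

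The promoter sequences are shown first because genes of both classes can carry the same element. RefSeq promoters (GRCm38.p6, 250 bases before to 50 after the start) were at hand for 23 of the 33 members. Both strands were searched for the ISRE core, GAAA followed after any 2 bases by another GAAA, and for the palindromic GAS TTCNNNGAA, and matches may overlap each other. The ISRE core was found for 14 of the 23 members (60.9%), against 4.0% of the 26742 genes in the promoter table. It was found for 5 of 8 IFIT, OAS and MX members and for 6 of 7 GBP and IRG members. A GAS was found for 6 of the 23 (26.1%), against 9.6% of all genes, and for 2 of 8 and 3 of 7 members of the same classes. A match describes these letters only, and its use in these livers was not measured. The stretches below, 5′ to 3′ on the strand of the gene with matches in capitals, were chosen because they carry the ISRE in a type I effector (Ifit1, Isg15, Oas1a), in a GTPase (Gbp2) and in 2 pairs of near-copies (Ifit3 with Ifit3b, Igtp with Irgm2) that also share transcript sequence.
Ifit1, chr19:34640760-34640838, plus strand: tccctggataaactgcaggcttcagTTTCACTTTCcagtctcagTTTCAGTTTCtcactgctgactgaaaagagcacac
Ifit3, chr19:34583348-34583441, plus strand: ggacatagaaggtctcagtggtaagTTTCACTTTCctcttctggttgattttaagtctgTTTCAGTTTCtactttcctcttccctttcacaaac
Ifit3b, chr19:34607744-34607837, plus strand: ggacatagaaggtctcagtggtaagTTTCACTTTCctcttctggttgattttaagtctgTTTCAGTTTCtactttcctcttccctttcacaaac
Oas1a, chr5:120907526-120907570, minus strand: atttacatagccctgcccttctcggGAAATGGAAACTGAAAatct
Isg15, chr4:156200850-156200921, minus strand: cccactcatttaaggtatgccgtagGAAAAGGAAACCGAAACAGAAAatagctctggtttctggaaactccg
Gbp2, chr3:142620579-142620638, plus strand: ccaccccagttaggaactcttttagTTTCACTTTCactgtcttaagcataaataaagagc
Igtp, chr11:58199497-58199555, plus strand: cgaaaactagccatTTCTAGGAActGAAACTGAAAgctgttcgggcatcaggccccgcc
Irgm2, chr11:58214888-58214947, plus strand: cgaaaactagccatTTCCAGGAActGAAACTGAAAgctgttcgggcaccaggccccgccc
The Ifit3 and Ifit3b stretches were equal at 94 of 94 bases, and those of Igtp and Irgm2 at 57 of 59. In Igtp and Irgm2 a GAS stands just before the ISRE, so that these stretches hold both motifs.

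Transcripts of the interferon response genes did not differ detectably between SA and Ctrl livers. Levels are counts scaled to library size (CPM) with TMM factors, and differences were tested over 12358 genes with the edgeR quasi-likelihood test, Benjamini-Hochberg adjusted. Of the 33 members, 30 had enough counts to be tested and none was past an adjusted p of 0.05, where 0.0162% of all tested genes were (0.00809% higher and 0.00809% lower in SA). The smallest adjusted p among the members was 0.828. At an unadjusted p under 0.05 the edgeR count was 0 of 30 against 6.21% of all tested genes, and DESeq2 called none of the members at either level. With limma-voom the counts were 0 adjusted and 1 unadjusted (Irgm2), and the unadjusted share of all genes was not counted there. The fold change was positive for 22 of the 30, against 48.7% of all tested genes, and negative for 8, against 51.3%, with a median log2 fold change of 0.10 over the members and -0.01 over all tested genes. The 95% intervals of the members ran from -0.87 to 1.26 on the log2 scale. A 2-fold rise lay inside the interval of 3 members (Oas2, Oas3 and Ifi27l2a) and a 2-fold fall inside that of none.

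**Figure D1:**
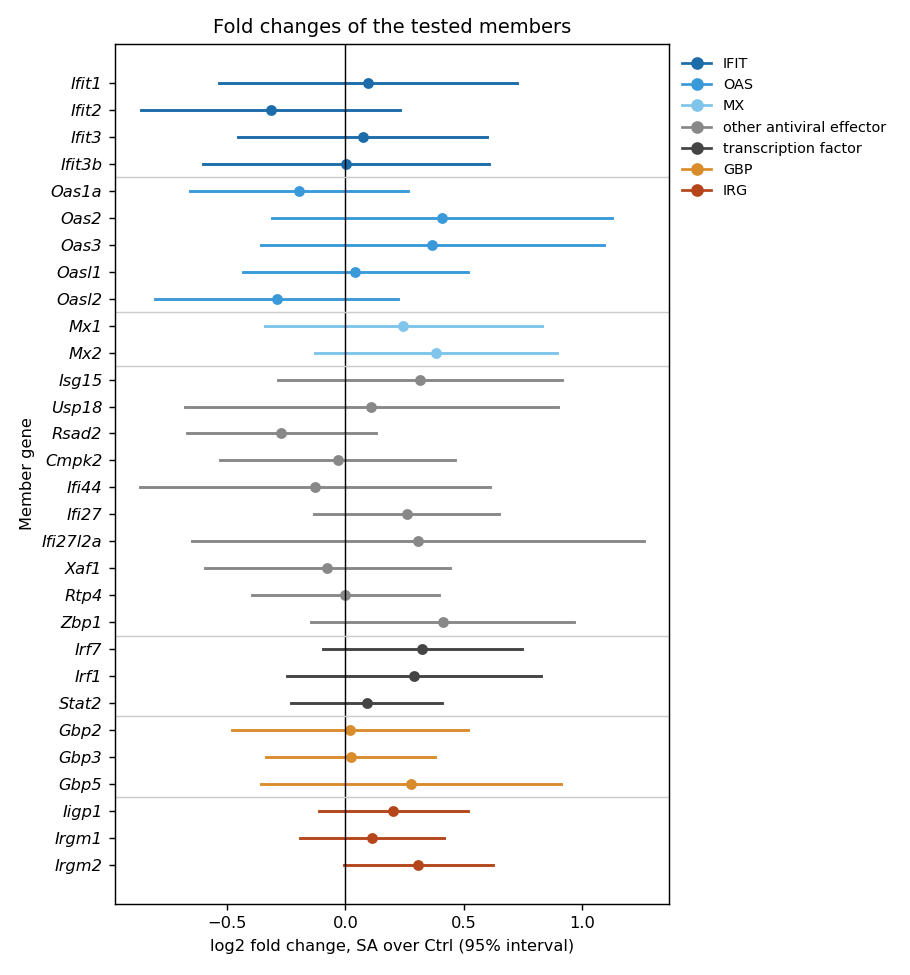
Log2 fold change of SA over Ctrl for the 30 tested members (points) with 95% intervals (lines), coloured by family and separated by grey rules. Every interval includes 0, and the one nearest to leaving it is that of Irgm2, from -0.01 to 0.62.

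The 8 libraries held 14114145 to 15922829 counts, except SA 4 with 28184001, and tested members had as few as 12 counts in a library (Ifi27l2a in Ctrl 4). Mitochondrial transcripts made up 9.23% of Ctrl 4 and between 3.55% and 4.87% of each other library. Hepatocyte markers (6 of 6 tested, among them Alb) summed to 65032 to 90140 CPM in Ctrl and 57516 to 81408 CPM in SA. Alb made up most of that sum. Of the 6 fold changes 4 were positive and 2 negative. At an unadjusted p under 0.05 in edgeR 1 was higher, where 2.91% of all tested genes were. That was Hnf4a, with a log2 fold change of 0.61 ± 0.17 (SE) and an adjusted p of 0.425 in edgeR.

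Among the ligands, almost nothing was detected. Of 21 listed interferon genes 18 had no count in any library, and the other 3 together had 4 reads over all 8 libraries. Ifng, the type II ligand, had 1 read, in SA 2. With so few reads no difference in the ligands could be seen at this depth.

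Of 17 listed receptors and signal transducers 15 had enough counts to be tested, the type I and type II receptors among them. Tyk2 and Ifnlr1 were not tested, and Tyk2, a kinase of the type I signal, had 0 to 3 counts in each library. Ifnar1 was at 47.5 to 56.8 CPM in Ctrl and 45.8 to 54.4 CPM in SA, and Ifnar2 at 23.4 to 30.7 and 25.3 to 30.0 CPM. Ifngr1 had a log2 fold change of -0.22 ± 0.15 (SE), with an adjusted p of 0.974 in edgeR. Irf9, the DNA-binding partner of Stat2, had 0.05 ± 0.15 (SE). Of 15 tested genes in this list 1 was higher and 0 lower at an unadjusted p under 0.05, against 2.91% and 3.29% of all genes in those directions, and none passed after adjustment. The 1 was Socs3, a feedback inhibitor of cytokine signalling that interleukins also induce. It was at 12.2, 6.27, 10.5 and 4.16 CPM in Ctrl and 32.2, 30.3, 17.6 and 12.0 CPM in SA, with SA 4 inside the Ctrl range. The fitted log2 difference was 1.47 ± 0.36 (SE), short of the threshold with edgeR (adjusted p = 0.342), and DESeq2 called it (adjusted p = 0.0132).

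Of the 3 transcription factor members, Stat2 was the most abundant. It was at 68.2, 69.1, 81.8 and 69.0 CPM in Ctrl 1 to 4, against 91.0, 68.1, 83.0 and 64.6 CPM in SA 1 to 4. The highest and the lowest values were both in SA, and the log2 fold change was 0.09 ± 0.15 (SE), with an adjusted p of 0.996 in edgeR. Irf7, which drives type I interferon production and is itself induced by interferon, was at 38.1, 46.7, 32.7 and 23.6 CPM in Ctrl and 47.9, 39.3, 39.3 and 50.2 CPM in SA. The fitted log2 difference was 0.32 ± 0.19 (SE) with an adjusted p of 0.940 (edgeR), and the Ctrl library with the most reached into the SA range. Irf1, an activator of type II targets, was at 28.2, 24.3, 24.4 and 10.3 CPM in Ctrl and 28.7, 27.3, 27.8 and 22.9 CPM in SA. Ctrl 4 stood low for both Irf7 and Irf1. Without Ctrl 4 the log2 fold changes were 0.17 for Irf7 and 0.05 for Irf1. The part of the high mitochondrial share of Ctrl 4 in these values was not tested.

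The IFIT proteins bind foreign RNA and block its translation. Ifit1 was at 15.6, 17.6, 8.03 and 21.2 CPM in Ctrl 1 to 4, against 16.2, 17.5, 9.96 and 22.7 CPM in SA 1 to 4. The 2 groups covered nearly the same range, with the third library of each lowest and the fourth highest, and the log2 fold change was 0.10 ± 0.29 (SE), with an adjusted p of 0.996 in edgeR. Ifit3 was at 17.1, 17.1, 10.3 and 16.9 CPM in Ctrl and 16.7, 16.3, 9.68 and 21.6 CPM in SA, again lowest in Ctrl 3 and SA 3. Ifit3b, its neighbour on chromosome 19, was at 5.12, 4.14, 3.08 and 3.02 CPM in Ctrl and 4.90, 3.44, 2.56 and 4.41 CPM in SA. The log2 fold changes of Ifit3 and Ifit3b were 0.07 and 0.00. Of the 50-base words in the Ifit3 transcripts, 51.2% also occur in transcripts of Ifit3b, so the split of reads between these genes is uncertain. Ifit2 had the lowest value of the family, -0.32 ± 0.25 (SE), at 5.19 to 12.9 CPM in Ctrl and 6.78 to 8.65 CPM in SA.

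The OAS enzymes make the oligoadenylate that activates RNase L, an activity that their relative Oasl1 lacks. Oasl1 was at 18.6, 22.0, 13.1 and 18.3 CPM in Ctrl and 26.2, 16.4, 13.5 and 18.0 CPM in SA. Apart from SA 1 the SA values lay within the Ctrl range, and the log2 fold change was 0.04 ± 0.22 (SE). Oas2 and Oas3, which adjoin each other on chromosome 5, had the highest fold changes of the family, 0.41 ± 0.33 and 0.37 ± 0.33 (SE; edgeR, adjusted p = 0.989 and 0.996). Oas2 was at 4.50, 3.17, 6.94 and 3.95 CPM in Ctrl and 3.89, 4.94, 10.4 and 5.50 CPM in SA. It was highest in Ctrl 3 and SA 3, the libraries in which Ifit1 and Ifit3 were lowest. Its log2 fold change was 0.04 without SA 3 and 0.67 without Ctrl 3. Oasl2 and Oas1a had -0.29 and -0.20. Oas1a shares 57.6% of its 50-base words with Oas1g, so its count is uncertain too.

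The MX proteins are dynamin-like GTPases that block viral nucleoproteins. Mx2, the more abundant, was at 4.23, 4.69, 5.01 and 5.81 CPM in Ctrl and 8.52, 6.07, 6.78 and 4.52 CPM in SA. Of the SA libraries 3 exceeded every Ctrl library and SA 4 fell among them, for a log2 fold change of 0.38 ± 0.24 (SE), with an adjusted p of 0.953 in edgeR. Mx1 was at 1.94 to 2.93 CPM in Ctrl and 2.35 to 3.55 CPM in SA. GENCODE M21 types Mx2 as a polymorphic pseudogene, so whether its transcripts encode a working protein in these mice is not known here.

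The other antiviral effectors had 5 positive and 5 negative fold changes. Ifi27, a small membrane protein, was the most abundant at 94.8, 117, 88.0 and 79.7 CPM in Ctrl and 133, 82.3, 104 and 134 CPM in SA. SA 1 and SA 4 exceeded every Ctrl library while SA 2 was near the lowest, and the log2 fold change was 0.26 ± 0.18 (SE), with an adjusted p of 0.977 in edgeR. Isg15, a ubiquitin-like modifier, was at 8.39, 8.82, 6.22 and 4.74 CPM in Ctrl and 9.39, 8.76, 4.98 and 11.8 CPM in SA. The groups overlapped widely, with a log2 fold change of 0.31 ± 0.28 (SE). Usp18, the protease that removes Isg15 from proteins and dampens Ifnar2 signalling, was the scarcest tested member, at 0.887 to 2.76 CPM in Ctrl and 1.38 to 2.06 CPM in SA. Rsad2 (viperin) and Cmpk2, neighbours on chromosome 12, had -0.27 ± 0.18 and -0.03 ± 0.23 (SE). Zbp1, a sensor of Z-form nucleic acid, had the highest fold change of all members, 0.41 ± 0.26 (SE; edgeR, adjusted p = 0.954), at 10.3, 6.48, 14.2 and 7.04 CPM in Ctrl and 15.4, 9.95, 11.1 and 14.2 CPM in SA. Ifi44 and Xaf1 had -0.13 and -0.08, and Rtp4 had an unadjusted p of 0.999 (edgeR). Ifi27l2a had 0.31 ± 0.44 (SE) and ranged most, from 0.861 CPM in Ctrl 4 to 6.55 CPM in Ctrl 1. Rtp4 shares 11.6% of its 50-base words with the overlapping Gm45338.

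**Figure D2:**
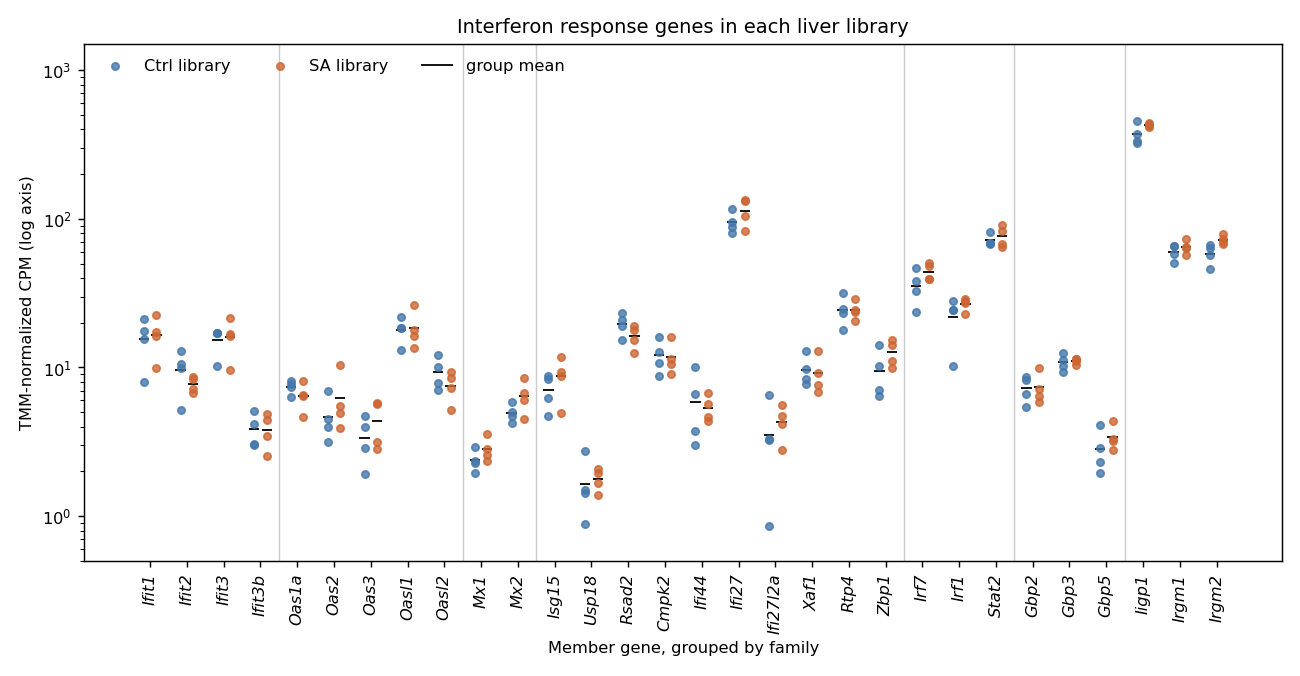
TMM-normalized CPM (log axis) of the 30 tested members in each Ctrl and SA library, with the mean of each group as a black bar and families separated by grey lines. The points of the groups overlap for every member but Irgm2, and Iigp1 is the most abundant at 323 to 453 CPM.

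The GBP and IRG GTPases held the member with the most counts. Iigp1, an IRG GTPase that loads onto pathogen vacuoles, was at 335, 373, 323 and 453 CPM in Ctrl and 434, 416, 439 and 420 CPM in SA. The SA libraries lay close together, and 3 Ctrl libraries lay below them while Ctrl 4 lay above, for a log2 fold change of 0.20 ± 0.14 (SE), with an adjusted p of 0.978 in edgeR. Without Ctrl 4 it was 0.31 (edgeR, adjusted p = 0.441). Irgm2, a regulatory IRG protein, was at 46.1, 56.8, 63.8 and 66.9 CPM in Ctrl and 79.1, 73.1, 67.5 and 69.5 CPM in SA. It was the only member whose groups did not overlap, 1 of 30, where 3.12% of all tested genes did not overlap (1.66% with SA above Ctrl and 1.46% below). The gap between SA 3 and Ctrl 4 was small, and the log2 fold change was 0.31 ± 0.15 (SE), with an adjusted p of 0.828 in edgeR. With limma-voom the unadjusted p was 0.0472 and the adjusted p 0.874. Irgm1 was at 50.7 to 66.0 CPM in Ctrl and 57.5 to 73.2 CPM in SA, with a log2 fold change of 0.11 ± 0.14 (SE).

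Of the GBP genes, Gbp3 was the most abundant, at 12.6, 10.3, 9.29 and 11.3 CPM in Ctrl and 11.3, 10.3, 10.996 and 11.4 CPM in SA. The SA values lay inside the Ctrl range, with a log2 fold change of 0.02 ± 0.16 (SE). Gbp2 was at 8.26, 5.45, 8.69 and 6.68 CPM in Ctrl and 6.44, 7.13, 5.88 and 9.91 CPM in SA, with 0.02 ± 0.23 (SE). Both values turned negative with upper quartile factors, at -0.01 each. Gbp5, which promotes inflammasome assembly, was at 1.94 to 4.10 CPM in Ctrl and 2.77 to 4.37 CPM in SA, with 0.28 ± 0.29 (SE).

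The remaining GTPase members, Gbp6, Ifi47 and Igtp, had 0 counts in all 8 libraries, yet the authors' deposited FPKM table (fragments scaled to transcript length and depth) lists all 3 above 0. Igtp was at 17.02, 15.2, 18.8 and 12.7 FPKM in Ctrl 1 to 4 and 24.0, 36.2, 17.6 and 36.3 FPKM in SA 1 to 4. SA 3 lay inside the Ctrl range, and the difference on the log2(FPKM + 1) scale was 0.76 ± 0.25 (SE; limma, unadjusted p = 0.0169, adjusted p = 0.999). Ifi47 ranged from 1.66 to 23.5 FPKM and Gbp6 from 0.615 to 11.1 FPKM without separation of the groups. In the GENCODE M21 annotation each of these genes shares exonic bases with a gene on its own strand. Igtp shares them with Irgm2 (8.01% of the exonic bases of Igtp), Gbp6 with Gm43302 (29.0% on the same strand) and Ifi47 with Olfr56 (4.49% on the same strand). Of the 50-base words in the Gbp6 transcripts, 65% also occur in transcripts of Gm43302. The share of such words was 11.8% for Igtp with Irgm2 and 2.54% for Ifi47 with Olfr56. Because the FPKM table lists all 3 above 0, the zeros are not read as absence of expression. Of coding genes listed in FPKM that share under 50% of their exonic bases, the class of these 3 members, 6.16% had 0 counts in all libraries. Among coding genes listed in FPKM that share none, the share was 2.24%. The part of the shared exons and words in the zeros was not tested, and Irgm2 is itself a partner in such a pair.

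The FPKM table could not serve as a check of the other members. It lists 22 members, 19 of them with counts. For 9 of these 19 the highest FPKM exceeded the lowest by over 4 times, up to 32.1 times in Oasl1, while the CPM of no such member did, the largest ratio being 3.11 for Usp18. Oasl1 fell to 0.462 FPKM in SA 4, a library in which its CPM was ordinary. Igtp, Ifi47 and Gbp6 have no counts to set beside their FPKM, so the Igtp difference carries the same limit.

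**Figure D3:**
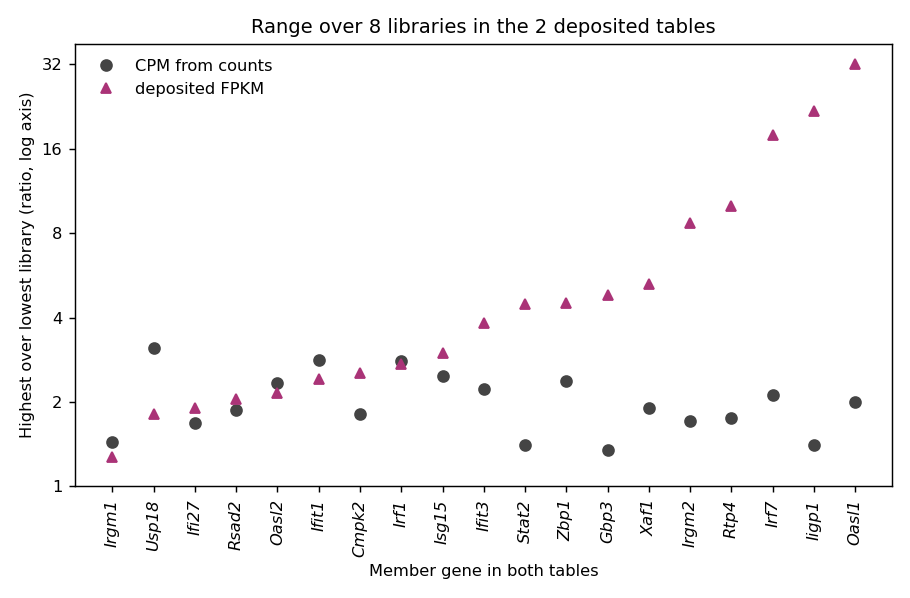
Ratio of the highest to the lowest library (log axis) for the 19 members with values in both tables, from CPM (circles) and from the deposited FPKM (triangles), ordered by the FPKM ratio. The circles stay at or under 3.11 while the triangles reach 32.1 in Oasl1.

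Set side by side, the IFIT, OAS and MX members had a median log2 fold change of 0.07 over 11 tested genes, 8 positive, and the GBP and IRG members one of 0.16 over 6 tested genes, all 6 positive with TMM factors but 4 with upper quartile factors. The median over all tested genes was -0.01, and 48.7% of them were positive. The difference of the medians, -0.08, was smaller than the spread between replicate libraries of 1 group (SD 0.152). That SD is of single libraries and not the error of a difference between groups, so it gives no test. With 1 library left out the difference of the medians ran from -0.22 (without Ctrl 3) to 0.0016 (without Ctrl 1). The IFIT, OAS and MX median ran from -0.09 to 0.17 and was negative without Ctrl 3 or SA 4, and the GTPase median from 0.11 to 0.19. The median deviation of the IFIT, OAS and MX members from their means over 8 libraries was 0.16, -0.10, -0.14 and 0.06 in Ctrl 1 to 4, against 0.13, -0.11, -0.29 and 0.10 in SA 1 to 4, on the log2(CPM + 0.5) scale. That of the GBP and IRG members was -0.17, -0.08, -0.12 and 0.05 in Ctrl and 0.12, 0.06, -0.05 and 0.09 in SA. The first class was lowest in SA 3 and highest in Ctrl 1, the library where the GTPases were lowest. The GTPase median leaves out the 3 of 9 members without counts.

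**Figure D4:**
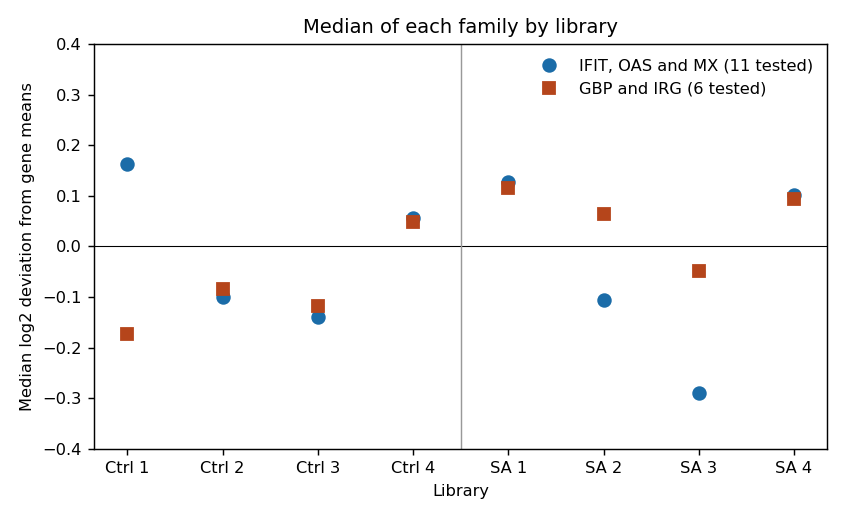
Median log2 deviation of the IFIT, OAS and MX members (circles, 11 genes) and of the GBP and IRG members (squares, 6 genes) in each library, from log2(CPM + 0.5). The circles run from -0.29 in SA 3 to 0.16 in Ctrl 1, and the squares from -0.17 in Ctrl 1 to 0.12 in SA 1.

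Spread and level are given here as descriptions, without a test. The within-group coefficient of variation had a median of 26.6% over the 11 IFIT, OAS and MX members (16.6% to 43.5%) and of 11.2% over the 6 GTPases (9.57% to 26.6%), where counting error alone would give medians of 9.26% and 5.26%. Per kilobase of GENCODE M21 exon, Ifi27 and Iigp1 stood highest at means of 70.9 and 68.6 CPM per kilobase. Irgm2 (17.7), Stat2 (12.6), Rtp4 (11.4), Irgm1 (10.8), Irf7 (10.5) and Isg15 (10.4 CPM per kilobase) followed. Over the 8 libraries the ranges of neighbours in this order overlapped throughout, except between Iigp1 and Irgm2. Gbp5 (0.468) and Oas3 (0.545 CPM per kilobase) stood lowest.

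Members did not move as 1 block across libraries. SA 1 held the highest value for 9 of the 30 members and the lowest for none, and SA 4 the highest for 8 and the lowest for 1. Ctrl 3 held the lowest for 8 and the highest for none, and Ctrl 4 the lowest for 7 and the highest for 5. Ctrl 4 was thus high for Ifit2, Oasl2, Ifi44, Rtp4 and Iigp1 and low for Ifi27l2a, Irf1, Irf7 and Isg15. Ifi27l2a and Irf1 in Ctrl 4 deviated by -1.56 and -1.14 on the log2(CPM + 0.5) scale, the lowest of all members and libraries.

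**Figure D5:**
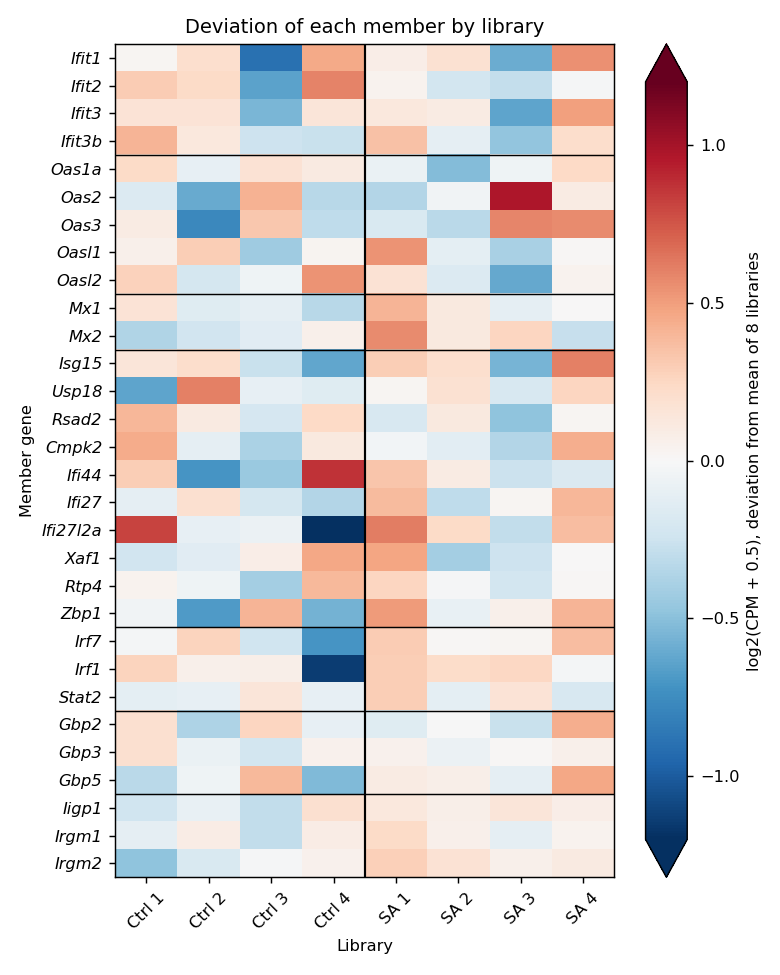
Deviation of log2(CPM + 0.5) from the mean of 8 libraries for each tested member (rows, by family) in each library (columns, Ctrl left of the line, SA right), red above and blue below the mean. Ifit1 is low in Ctrl 3 and SA 3 where Oas2 is high, and Ctrl 4 is lowest for Irf1 and Ifi27l2a.

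Other genes of the pathway, from lists chosen by name, gave few calls at the unadjusted level and none after adjustment in edgeR. Of 20 tested nucleic acid sensors and adaptors none had an unadjusted p under 0.05, with Cgas at 0.78 ± 0.41 and Tlr9, a sensor of unmethylated DNA, at -0.65 ± 0.39 (SE; edgeR, adjusted p = 0.888 and 0.950). Both were scarce, at 0.359 to 1.87 CPM for Cgas and 0.484 to 1.91 CPM for Tlr9. Of 34 tested other interferon-stimulated genes 1 was higher and 0 lower at that level, where 2.91% and 3.29% of all tested genes were, and 20 were positive (48.7% of all tested genes) with a median of 0.04. The 1 was Rnf213, a large ubiquitin ligase, at 13.0, 26.9, 59.2 and 40.3 CPM in Ctrl and 76.9, 50.2, 79.5 and 38.4 CPM in SA, a log2 fold change of 0.81 ± 0.37 (SE), with an adjusted p of 0.800 in edgeR. Its unadjusted p of 0.0479 became 0.0987 with DESeq2 and 0.0508 with upper quartile factors, and rose above 0.05 without Ctrl 1, Ctrl 2, Ctrl 4, SA 1 or SA 3 (up to 0.123). Of 10 tested type II targets outside the GTPases 1 was higher and 0 lower, again against 2.91% and 3.29% of all tested genes. That was Nlrc5, the activator of MHC class I genes, which was at 15.9, 16.8, 24.9 and 20.2 CPM in Ctrl and 27.2, 22.6, 33.1 and 23.9 CPM in SA, a log2 fold change of 0.45 ± 0.18 (SE), with an adjusted p of 0.718 in edgeR. Its unadjusted p of 0.0272 rose above 0.05 without Ctrl 1, Ctrl 2, SA 1 or SA 3 (up to 0.101). Cxcl9, a chemokine induced by type II interferon, had 0.42 ± 0.22 (SE; edgeR, adjusted p = 0.886). Rnf213, Nlrc5, Helz2 (0.39) and Oas2 were all highest in SA 3.

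Of 8 tested relatives of the member families, Gbp2b alone had an unadjusted p under 0.05, where 6.21% of all tested genes did. It was at 2.52, 3.93, 5.49 and 3.80 CPM in Ctrl and 5.90, 8.32, 7.33 and 8.42 CPM in SA. All SA libraries lay above all Ctrl libraries, where 1.66% of all tested genes did, and the log2 fold change was 0.93 ± 0.25 (SE), with an adjusted p of 0.425 in edgeR. Gbp2, with which it shares 2.03% of the 50-base words of Gbp2, had 0.02.

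Markers of cells that make or answer interferon are given here for comparison. In bulk tissue, fewer cells of a type and less RNA per cell cannot be told apart. The 16 T and NK cell markers summed to 4.31 to 9.65 CPM in Ctrl and 10.3 to 17.7 CPM in SA. Their mean CPM was higher in SA for 12 and lower for 4 (Cd3e, Cd2, Ncr1 and Klrb1c). Only 6 had enough counts to be tested, and Cd8a and Gzma reached that number through their SA libraries, so the signs of the tested markers are not counted here. Among the markers lower in SA, Cd3e had means of 0.317 CPM in Ctrl and 0.167 CPM in SA. Among those higher, Cd8a had means of 0.204 CPM in Ctrl and 1.44 CPM in SA. Markers of recruited macrophages, 8 of 8 tested, summed to 28.9 to 168 CPM in Ctrl and 33.3 to 36.3 CPM in SA. All 8 had negative fold changes (51.3% of all tested genes did) with a median of -1.33 on the log2 scale, and 5 were lower at an unadjusted p under 0.05 (3.29% of all tested genes) but none after adjustment in edgeR. Those of Kupffer cells, 8 of 8 tested, summed to 277 to 580 CPM in Ctrl and 482 to 702 CPM in SA. All 8 had positive fold changes (48.7% of all tested genes did) with a median of 0.37 on the log2 scale. At an unadjusted p under 0.05 in edgeR 1 was higher, where 2.91% of all tested genes were. Of the 6 plasmacytoid dendritic cell markers, 3 had a higher mean CPM in SA and 3 a lower one. Siglech, among the lower, was at means of 0.960 CPM in Ctrl and 0.799 CPM in SA. Bst2, among the higher, was at means of 196 CPM in Ctrl and 213 CPM in SA. It is also an interferon-stimulated gene and made up most of the summed level. The part of these cells in the levels of the interferon response genes was not tested.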

How the data were processed

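Liver RNA of 8 samples was measured by RNA sequencing with a NEBNext Ultra kit, per the labels' protocols. Of the deposited tables one gives unnormalized gene counts, all integers, and the other lists FPKM that the authors computed for 9265 entries. FastQC 0.19.7, HISAT2 and StringTie 2.2.1 are named per the submitters' processing notes, with the builds GRCm39 and mm10 and no role for either. The counting program and the use of strand are not given in the sources used here.

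Samples were grouped by title. The members and lists were chosen with earlier results of these data known. Counts were fitted with edgeR 4.0.16 in R 4.3.3 (filterByExpr, TMM, quasi-likelihood F test, group only), with Benjamini-Hochberg adjustment over 12358 genes. The F statistic gave the standard errors and 95% intervals. Values in all libraries are printed for the most abundant member of each family, members whose groups do not overlap and a fixed set of others (Irf7, Stat2, Isg15, Ifit3, Ifit3b, Gbp2, Igtp). Those of Oas2, Irf1, Zbp1, Gbp2b, Socs3, Rnf213 and Nlrc5 were added after their values were seen. Medians over members are descriptions. Exon overlaps, lengths and shared 50-base words come from GENCODE M21. Alternatives were DESeq2 1.42.0, limma-voom (limma 3.58.1), other factors and filters, limma on log2(FPKM + 1) and log2(FPKM + 0.1), each library left out, and a replicate block. On counts simulated for SA against Ctrl (12250 genes), edgeR called 54.5% of genes set to a 2-fold change and 96.9% of those set to 4-fold. Of its 160 calls 11 were false. The fit of the real counts made only 2 calls, so its cut-off on the unadjusted p was stricter. The simulated shares therefore do not say how often a change of that size would be called in the real counts. Whether the 8 samples are 8 animals is not labelled, and p-values reflect only how these samples spread, which may be technical. No pair of libraries of the same group agreed within sampling noise (lowest chi-square per degree of freedom 33.2). The result of 1 listed signal transducer is not reported here.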

Additional observations from a re-analysis of the deposited data

Results flagged for a closer look

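In 100 groups of 4 values (60 of them member genes), 3 values lay farther from the rest of their group than Dixon's 95% critical value allows, and chance flags about 1 in 20 groups. Ifit3 was low in Ctrl 3, at 10.26 CPM where Ctrl 1, 2 and 4 ranged from 16.9 to 17.1 CPM. Stat2 was high in that library, at 81.83 CPM where Ctrl 1, 2 and 4 ranged from 68.2 to 69.1 CPM. Gbp8, a relative of the GBP members, was high in SA 3, at 13.28 CPM where SA 1, 2 and 4 ranged from 7.13 to 7.65 CPM.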

How the results depend on the processing

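No member passed an adjusted p of 0.05 under any alternative run, and the smallest adjusted p with a library left out was 0.401 (Irgm2 without Ctrl 4). Over all genes, where edgeR called 1 higher and 1 lower, DESeq2 called 23 higher and 37 lower. Without the low-count filter edgeR called 3 higher and 5 lower, and limma-voom called 1 higher and 2 lower. For limma on FPKM the counts were 0 higher and 3 lower at either pseudocount and without a filter. With a library left out the counts ran from 0 (without Ctrl 4) to 13 higher and from 0 to 6 lower, both highest without SA 1. At an unadjusted p under 0.05, 2.91% of all tested genes were higher and 3.29% lower in the main edgeR fit. The shares of all genes in the other runs were not counted. At that level limma-voom had 1 member higher (Irgm2) and limma on FPKM 1 (Igtp). With a library left out 0 to 2 members were higher and 0 to 1 lower: Irf7 without Ctrl 2, Zbp1, Irgm2 and, lower, Ifit2 without Ctrl 3, Iigp1 and Irgm2 without Ctrl 4, and Mx2 without SA 4. Whether the numbers pair the samples is not labelled. Same-numbered samples correlated at -0.02, -0.01, 0.26 and -0.25, and not every sample correlated best with its own number. Correlations between single libraries could miss a weak pairing, so they do not settle this. With a replicate block edgeR called 5 genes lower, and Ifit3b and Rtp4 changed sign to -0.0073 and 0.015.

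Members near 0 changed sign under other settings, and the cause was not tested. Ifit3b was at -0.0019 with DESeq2, -0.0059 with RLE factors, -0.038 with upper quartile factors and -0.0039 with a minimum of 1 CPM in 4 libraries. Upper quartile factors gave -0.013 for Gbp2, -0.014 for Gbp3 and -0.012 for Ifnar2. With limma-voom Cmpk2 was at 0.010, Ifi44 at 0.0069 and Rtp4 at 0.023, and without the filter Rtp4 was at 0.0046. On log2(FPKM + 1), with or without a filter, Oasl1 was at -0.72, Usp18 at -0.11 and Ifnar1 at 0.019, and on log2(FPKM + 0.1) at -1.04, -0.12 and 0.021. With a library left out the log2 fold change ran from -0.12 to 0.27 for Ifit1, -0.11 to 0.25 for Ifit3, -0.13 to 0.17 for Ifit3b, -0.17 to 0.17 for Oasl1, -0.10 to 0.48 for Usp18 and -0.23 to 0.13 for Cmpk2. It ran from -0.34 to 0.26 for Ifi44, -0.013 to 0.79 for Ifi27l2a, -0.28 to 0.082 for Xaf1, -0.12 to 0.14 for Rtp4, -0.0015 to 0.16 for Stat2, -0.17 to 0.12 for Gbp2 and -0.044 to 0.095 for Gbp3. For the signal transducers it ran from -0.050 to 0.13 for Irf9, -0.090 to 0.0051 for Ifnar1 and -0.047 to 0.079 for Ifnar2. Members with few counts are limited by depth, and 8 had under 50 counts in some library.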

Other observations

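Outside the members, 9 further listed genes had 0 counts in all 8 libraries while the authors' deposited FPKM table lists them above 0. B2m, the light chain of MHC class I, was listed at 1934 to 2936 FPKM, Psmb10, an immunoproteasome subunit, at 16.1 to 56.4 FPKM, and Myd88, the adaptor of Toll-like receptors, at 14.2 to 23.0 FPKM. Cxcl10, a chemokine induced by both interferon types, was listed at 3.89 to 10.4 FPKM. Among all genes, 495 were listed in FPKM and had 0 counts in all libraries. Of coding genes listed in FPKM, 2.24% of the 5091 that share no exonic base with another gene in GENCODE M21 had 0 counts in all libraries. The share was 6.16% of the 2857 that share under 50%, the class that holds Igtp, Ifi47 and Gbp6, 47.6% of the 145 that share 50% to under 95%, and 91.7% of the 12 that share 95% or more. B2m and Psmb10 share no exonic base in that annotation. The part of shared exons in the zeros was not tested. Any list of interferon targets tested on these counts therefore lacks B2m, Psmb10, Cxcl10, Igtp, Ifi47, Gbp6, Tgtp1 and Tgtp2.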
